A study of Mus musculus with 18 samples.

Results

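Riboflavin, vitamin B2, is taken up from the blood and turned inside the cell into the flavin cofactors FMN and FAD. The 8 genes described here were chosen by name, for their place in that route or in a neighbouring cofactor route, although earlier results of these data were known when the genes and the lists below were chosen. They are 8 of the 54532 genes listed in each of the expression tables, and all 8 were found there. Slc52a2 and Slc52a3 encode plasma membrane riboflavin transporters. Rfk encodes riboflavin kinase, which makes FMN, and Flad1 encodes FAD synthase, which makes FAD from FMN. Slc25a32 encodes a carrier of the inner mitochondrial membrane that has been linked to folate and FAD import. Pdxk encodes pyridoxal kinase of vitamin B6 metabolism, Mtr encodes methionine synthase, and Mtrr encodes the reductase that keeps methionine synthase active.

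Flavin dependence differed among these gene products. Pyridoxal kinase uses ATP and is not a flavoprotein. Methionine synthase carries cobalamin, whereas its reductase Mtrr carries both FMN and FAD. The liver stores these cofactors and is a main site of the one-carbon reactions that use them.

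Livers of male wild-type C57BL/6J mice were sequenced after an overnight fast, with 1 library per mouse and 18 libraries in 4 groups. Mice received a diet with 99% of its riboflavin removed (B2D) or a matched isocaloric control diet (Ctrl) from 4 weeks of age. In the experiment without drug, 5 Ctrl and 5 B2D livers were taken after 1 month of diet. In the other experiment 4 mice on each diet (Ctrl+FF and B2D+FF) were kept on diet for 9 weeks and were gavaged in the last weeks with fenofibrate, a PPARα agonist, at a daily dose of 300 mg/kg, the final one 2 hours before harvest. Both diets also held amino acids constant. No group received fenofibrate at 1 month and no group went without it at 9 weeks, so drug, diet time and expression table cannot be told apart.

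Values are FPKM, fragment counts divided by transcript length and library size, which allows levels of different genes to be set side by side. A test compared diets within a table on log2(FPKM + 1) with limma, over all genes with a mean of at least 0.5 FPKM. Adjusted p-values follow Benjamini and Hochberg, with 0.05 as the threshold, and a diet effect is the mean difference on this log2 scale, deficient minus control. This scale understates the change of genes at low FPKM. Between 15320729 and 21898502 reads were assigned to genes in each library, of which 5.22% to 9.41% were mitochondrial. Hepatocyte markers summed to 18829 FPKM or more in every library, against at most 109 FPKM for 6 Kupffer cell and macrophage markers and at most 44.4 FPKM for 5 stellate cell and fibroblast markers. In bulk liver, fewer cells of a type and less RNA per cell cannot be told apart.

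The 8 genes covered a wide range of levels. In Ctrl livers Rfk stood highest at 19.1 ± 1.04 FPKM (SD, n = 5), followed by Flad1 at 9.51 ± 1.28, Slc25a32 at 8.07 ± 1.63 and Pdxk at 7.34 ± 1.15 FPKM. Slc52a2 followed at 2.50 ± 0.278, Mtrr at 1.79 ± 0.172, Mtr at 0.997 ± 0.203 and Slc52a3 at 0.131 ± 0.0891 FPKM. Neighbours in this order overlapped between mice for Flad1 and Slc25a32 and for Slc25a32 and Pdxk. All other neighbours in the order were separated in these 5 mice. Rfk lay at percentile 84.2 of the genes tested in the table, Slc52a2 at percentile 39.3 and Mtr at percentile 16.1.

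**Figure D1:**
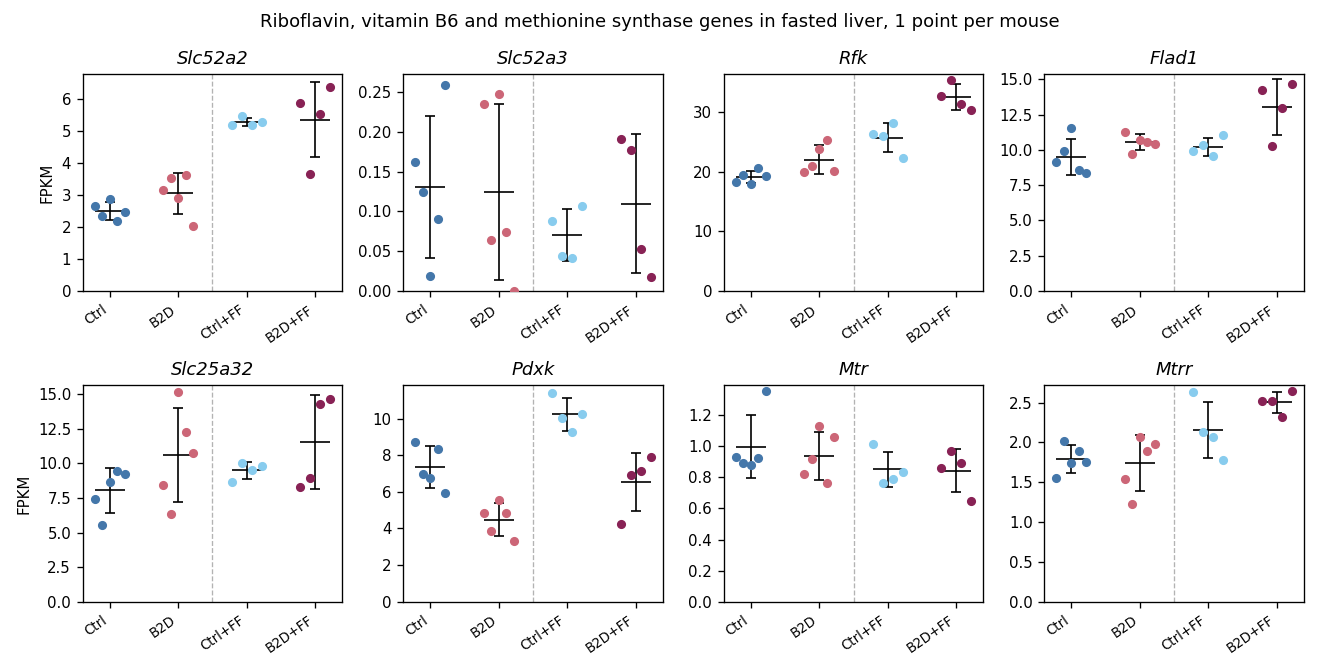
FPKM of each of the 8 genes (vertical axes, linear from 0) in every mouse of the 4 groups (1 point per mouse, bar and whiskers are mean and SD, dashed line separates the 2 tables). Pdxk was lower on the deficient diet in both experiments without overlap, and Slc52a3 stayed below 0.26 FPKM in every mouse.

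Of the 8 genes, 7 had enough signal to be tested and Slc52a3 did not. In B2D against Ctrl, 1 of the 7 passed the threshold (Pdxk, lower), where 2.7% of all 11574 genes tested passed, 1.94% as lower and 0.769% as higher. With fenofibrate, 0 of the 7 passed by limma at the adjusted threshold, where 4.45% of 11878 genes tested did (2.21% lower), and 3 of the 7 (Rfk, Flad1 and Pdxk) had an unadjusted p under 0.05, where 21.2% of all genes did. The median log2 fold change of the 7 was 0.14 without and 0.16 with fenofibrate, beside -0.0013 and 0.013 over all genes tested. Of the 529 genes past the threshold with fenofibrate, 263 were lower and 266 higher, and after upper-quartile rescaling the split became 347 lower and 213 higher.

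**Figure D2:**
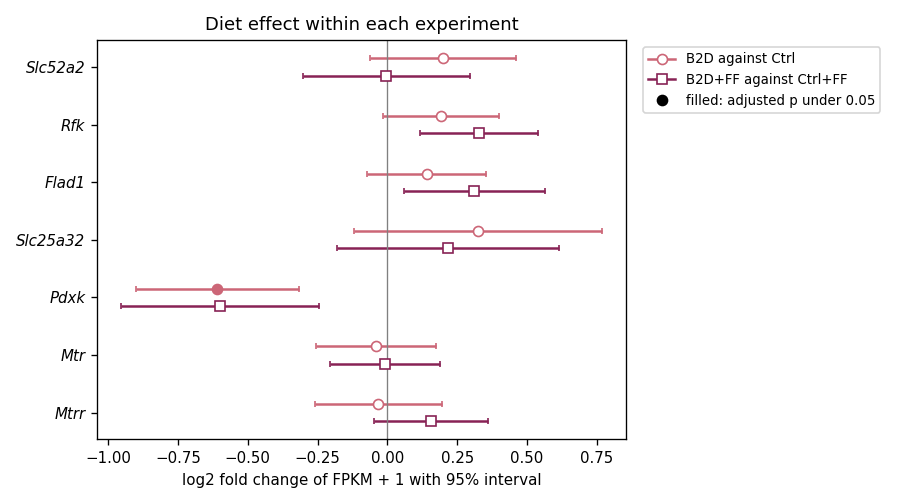
Log2 fold change of FPKM + 1 on the deficient diet (horizontal axis, with 95% interval) for the 7 genes tested, without fenofibrate (circles) and with it (squares), filled where the adjusted p was under 0.05. Pdxk without fenofibrate is the single filled point, and its intervals lie below 0 in both experiments.

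Pdxk, the pyridoxal kinase gene, fell on the riboflavin-deficient diet. In Ctrl livers its FPKM was 8.70, 6.95, 6.75, 8.36 and 5.95, and in B2D livers 4.84, 3.84, 5.56, 4.87 and 3.31. The highest B2D mouse stayed below the lowest Ctrl mouse. Its mean went from 7.34 ± 1.15 to 4.49 ± 0.897 FPKM (SD, n = 5 each) and so fell by 38.9%. This gave a diet effect of -0.61 (SE 0.134, 95% interval -0.90 to -0.32) with a limma adjusted p of 0.0364, which placed Pdxk 211th by p among 11574 genes. An exact two-sided permutation test gave p = 0.00794, the smallest that 5 against 5 mice allow. Without a filter on low genes the adjusted p was 0.105, and over all settings that kept every library it ranged from 0.0151 to 0.105. The call was also lost when 1 library was left out, with adjusted p from 0.0613 to 0.105 without Ctrl 1, Ctrl 2, Ctrl 4, B2D 2, B2D 4 or B2D 5, while the log2 fold change stayed between -0.68 and -0.53.

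With fenofibrate the same gene again separated the diets. Its FPKM was 11.4, 10.01, 9.26 and 10.2 in Ctrl+FF and 4.22, 6.90, 7.15 and 7.89 in B2D+FF. Every B2D+FF mouse was below every Ctrl+FF mouse, and B2D+FF 1 was the lowest. Means were 10.2 ± 0.892 and 6.54 ± 1.60 FPKM (SD, n = 4 each), a difference of -36.0%. The diet effect of -0.60 (SE 0.158, 95% interval -0.95 to -0.24) had a limma adjusted p of 0.0647 and did not pass. The exact permutation p was 0.0286, the smallest that 4 against 4 mice allow. Under other settings the adjusted p ranged from 0.0336 to 0.145, and 6 of them put it past the threshold. Groups that did not overlap, lower on the deficient diet, were found in 2.89% of genes without and 6.44% with fenofibrate. In both tables at once this held for 100 of 11031 genes tested in both, or 0.907%.

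The diet effect on Pdxk was not shown to differ with fenofibrate. The diet effect with minus without fenofibrate was 0.011 on the log2 scale (95% interval -0.44 to 0.46, limma adjusted p = 0.991), where 0.228% of 11862 genes passed. That interval does not exclude a difference of either sign. Side by side and with no test, B2D+FF livers held 6.54 FPKM and Ctrl livers without drug 7.34 FPKM. Kupffer cell and macrophage markers summed to 76.3 to 98.2 FPKM in Ctrl and 57.7 to 88.8 in B2D, and hepatocyte markers to 32088 to 41395 and 32371 to 46524 FPKM. The ranges of these sums overlapped between diets, but single markers within them differed. The Kupffer cell marker Clec4f did not overlap, at 25.5 to 32.7 FPKM in Ctrl and 17.0 to 23.0 in B2D, while the Marco median rose from 2.06 to 4.47. The median of the hepatocyte marker Tat was 508 FPKM in Ctrl and 1159 in B2D, with overlapping ranges. Other hepatocyte markers went either way, also with overlapping ranges. Medians in Ctrl and B2D were 903 and 1497 FPKM for Cps1 and 378 and 396 for Apob. They were 26352.5 and 23217.4 for Alb, 9294 and 6580 for Apoa1, and 2919 and 2402 for Ttr. With fenofibrate the Kupffer cell and macrophage sums were 63.1 to 109 FPKM in Ctrl+FF and 39.4 to 101 in B2D+FF. The hepatocyte sums were 21106 to 24376 and 18829 to 21671 FPKM. Single hepatocyte markers were separated there. Alb (14652 to 17148 and 11460 to 13198 FPKM) and Ttr (1684 to 1861 and 1234 to 1493) were lower in B2D+FF. Tat (175 to 354 and 584 to 1007) was higher, and Apoa1, Cps1 and Apob overlapped. The part of these cell types in the Pdxk difference was not tested.

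The start of Pdxk is shown because this is the gene of the 8 that passed. Pdxk (ENSMUSG00000032788) lies on the minus strand of chromosome 10 of GRCm38 from 78436744 to 78464975. The 250 bases before its RefSeq start, at chr10:78464949-78465198, read as follows, with capitals marking matches on either strand to 6 motifs searched. These were the CCAAT box, the GC box with the letters GGGCGG, the E-box with the letters CACGTG, the TATA box with the letters TATAAA, the nuclear receptor half-site with the letters AGGTCA, and the cAMP response half-site with the letters TGACGT.
Pdxk: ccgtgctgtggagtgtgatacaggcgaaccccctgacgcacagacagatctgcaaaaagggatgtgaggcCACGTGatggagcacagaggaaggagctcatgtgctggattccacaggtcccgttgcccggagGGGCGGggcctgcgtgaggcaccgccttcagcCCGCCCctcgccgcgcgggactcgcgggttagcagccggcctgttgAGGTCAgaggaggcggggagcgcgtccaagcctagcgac
This stretch held GGGCGG at 2 places, CACGTG at 1 and AGGTCA at 1. Among 32851 mouse promoter windows of the same length, 32.7% held GGGCGG, 6.02% held CACGTG and 14.0% held AGGTCA at least once. Such a match is a run of letters and not a measured binding site. Its GC content was 66.4%, beside a median of 52.4% over all windows. An antisense gene with the symbol 4921516A02Rik covers 39.0% of the exon bases of Pdxk on the opposite strand. It was listed at a mean of 0 FPKM in both tables, and whether reads were counted by strand is not given in the sources used here.

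Of the vitamin B6 genes outside the 8, the 5 counted here had 4 tested members. Without fenofibrate all 4 had a lower mean log2 level on the deficient diet, beside 50.2% of all genes tested, though Alpl was nearly level at -0.0029. By limma 0 passed the adjusted threshold, beside 2.7% of all genes, and 1 was lower at an unadjusted p under 0.05, where 18.4% of all genes passed in either direction. The list median, over only 4 genes, was -0.29 on the log2 scale beside -0.0013 over all genes. Aox1 was at -0.42 (limma adjusted p = 0.356). Aox3 encodes a liver aldehyde oxidase, a molybdenum enzyme that carries FAD. Its mean was 37.7 ± 8.60 FPKM for Ctrl against 21.3 ± 10.6 for B2D (SD over 5 mice each), a diet effect of -0.91 with a limma adjusted p of 0.140. Plpbp encodes a pyridoxal phosphate binding protein and had a diet effect of -0.15 (limma adjusted p = 0.464). With fenofibrate 2 of the 4 were lower, beside 47.2% of all genes, and 2 were higher. By limma 0 passed the adjusted threshold, beside 4.45% of all genes. At an unadjusted p under 0.05, 1 was lower, where 21.2% of all genes passed in either direction, and the list median was 0.0021.

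Rfk, the gene of the enzyme that makes FMN, had the highest mean FPKM of the 8. Its FPKM was 18.2, 19.5, 17.9, 20.5 and 19.2 in Ctrl and 19.9, 20.9, 23.9, 25.3 and 20.1 in B2D. B2D mice were mostly above Ctrl mice, with overlap at Ctrl 4. This gave a diet effect of 0.19 (SE 0.0957, 95% interval -0.017 to 0.40, limma adjusted p = 0.310) and the exact permutation p was 0.0317. With fenofibrate the values were 26.3, 25.9, 28.1 and 22.3 in Ctrl+FF and 32.6, 35.4, 31.4 and 30.4 in B2D+FF. Each B2D+FF mouse was above each Ctrl+FF mouse, as for 7.82% of all genes in that table. Means of 25.7 ± 2.43 and 32.4 ± 2.17 FPKM (SD, n = 4 each) differed by 26.4%, with a diet effect of 0.33 (SE 0.0939, 95% interval 0.12 to 0.54). Its limma adjusted p was 0.0817, so Rfk did not pass, and it stayed between 0.0587 and 0.175 under the other settings. The exact permutation p was 0.0286.

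Rfk (ENSMUSG00000024712) lies on the plus strand of chromosome 19 from 17394043 to 17401349, and no other annotated gene overlaps it. Its upstream bases are shown beside those of Flad1 because the enzymes act in sequence, FMN synthesis and then FAD synthesis. Flad1 (ENSMUSG00000042642) lies on the minus strand of chromosome 3 from 89401004 to 89411870. The stretches are chr19:17393793-17394042 for Rfk and chr3:89411882-89412131 for Flad1, with the same 6 motifs in capitals.
Rfk: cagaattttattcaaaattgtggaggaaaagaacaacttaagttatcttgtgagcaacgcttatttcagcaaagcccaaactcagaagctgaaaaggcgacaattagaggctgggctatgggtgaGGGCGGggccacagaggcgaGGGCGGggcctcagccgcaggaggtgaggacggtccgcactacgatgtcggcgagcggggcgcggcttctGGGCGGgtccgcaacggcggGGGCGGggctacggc
Flad1: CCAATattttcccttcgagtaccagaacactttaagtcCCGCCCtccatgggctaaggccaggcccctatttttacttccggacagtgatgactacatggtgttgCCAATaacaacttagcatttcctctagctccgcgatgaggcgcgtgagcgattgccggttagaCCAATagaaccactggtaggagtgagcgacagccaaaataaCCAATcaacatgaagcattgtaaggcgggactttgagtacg
The Rfk stretch held GGGCGG at 4 places and none of the other 5 motifs. The Flad1 stretch held CCAAT at 4 places, a motif present in 33.8% of all windows, and GGGCGG at 1 place. GC content was 59.2% for Rfk and 49.2% for Flad1.

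Flad1, the FAD synthase gene, differed less between diets. Its FPKM was 9.12, 9.95, 11.5, 8.59 and 8.38 in Ctrl and 11.3, 9.72, 10.7, 10.6 and 10.4 in B2D. Ctrl 3 was above all B2D mice, so the groups overlapped. The diet effect was 0.14 (95% interval -0.072 to 0.35, limma adjusted p = 0.462, exact permutation p = 0.135). With fenofibrate the values were 9.90, 10.4, 9.59 and 11.03 in Ctrl+FF and 14.2, 10.2, 13.0 and 14.6 in B2D+FF. B2D+FF 2 lay among the Ctrl+FF mice and the other 3 B2D+FF mice lay above them. This gave a diet effect of 0.31 (SE 0.112, limma adjusted p = 0.151, exact permutation p = 0.0857). Without B2D+FF 2 the adjusted p was 0.0352 and the log2 fold change 0.41, and over all fits that left out 1 library the adjusted p ran from 0.0352 to 0.295. Lenep, on the same strand, shares 43.8% of the exon bases of Flad1. It was listed at a mean of 0.0342 FPKM without and 0.0122 FPKM with fenofibrate, so few reads were assigned to it. Whether reads in the shared exons were counted for Flad1 or for neither gene is not given in the sources used here.

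In the FPKM values given, Rfk exceeded Flad1 in every liver. Flad1 FPKM was divided by the length of all its exons, including the 43.8% of exon bases shared with Lenep. If reads there were counted for neither gene, Flad1 is understated and the ratio to it overstated. Their FPKM ratio was 1.55 to 2.39 in Ctrl, 1.77 to 2.39 in B2D, 2.02 to 2.94 in Ctrl+FF and 2.08 to 3.46 in B2D+FF. The ratio overlapped between diets in both experiments. Both genes had higher means on the deficient diet in both experiments, and neither passed the adjusted threshold in either of them.

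Slc52a2, a riboflavin transporter gene, showed no called diet difference. Its FPKM was 2.66, 2.34, 2.89, 2.17 and 2.45 in Ctrl and 3.16, 3.54, 2.91, 3.62 and 2.04 in B2D. In B2D, 4 of 5 mice were above all Ctrl mice and B2D 5 was below them all. This gave a diet effect of 0.20 (SE 0.120, 95% interval -0.062 to 0.46, limma adjusted p = 0.397, exact permutation p = 0.135). With fenofibrate the values were 5.20, 5.47, 5.18 and 5.28 in Ctrl+FF and 5.87, 3.66, 5.52 and 6.37 in B2D+FF. The Ctrl+FF mice were close together and B2D+FF 2 lay below them while the other 3 lay above. The diet effect was -0.0043 (95% interval -0.30 to 0.30, limma adjusted p = 0.992), and without B2D+FF 2 it was 0.14.

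Levels of Slc52a2 were higher in the table with fenofibrate. The mean was 5.28 ± 0.133 FPKM in Ctrl+FF (SD, n = 4) and 2.50 ± 0.278 in Ctrl (SD, n = 5), percentiles 60.1 and 39.3 of the genes tested in their tables. This is given side by side with no test, because the tables were normalized separately and differ in drug and in diet time. A common scaling over 13442 genes would multiply the deposited values by 0.976 to 0.993 without fenofibrate and by 1.012 to 1.031 with it. Slc52a2 (ENSMUSG00000022560) lies on the plus strand of chromosome 15 from 76538832 to 76544608, and a gap of 85 bases separates it from the opposite-strand gene Fbxl6.

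Slc52a3, the other transporter gene, was near the detection limit in these livers. It received 0 to 15 reads per library, 35 in all over the 5 Ctrl libraries and 31 over the 5 B2D libraries. With fenofibrate the totals were 13 reads in the 4 Ctrl+FF libraries and 23 in the 4 B2D+FF libraries. The limit that a count of 0 allows (3 reads) corresponded to 0.0518 to 0.0661 FPKM, for counting error only, and B2D 5 was the library with 0 reads. In Ctrl the values ran from 0.0183 to 0.259 FPKM and in B2D from 0 to 0.247, so these ranges overlapped. Fitted without the filter, the log2 fold change was -0.011 (limma adjusted p = 0.964) without and 0.050 (0.711) with fenofibrate. A diet difference was not detectable at this depth. Of the FPKM of both transporter genes together, Slc52a3 made up 0% to 9.56% in each library. This gene (ENSMUSG00000027463) lies on the plus strand of chromosome 2 from 151996511 to 152009258.

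Slc25a32, the mitochondrial carrier gene, varied widely between mice on the deficient diet. Its FPKM was 7.43, 5.52, 8.69, 9.46 and 9.23 in Ctrl and 8.46, 6.33, 15.2, 12.3 and 10.8 in B2D. B2D 3, B2D 4 and B2D 5 were above all Ctrl mice, and the other 2 lay among them. With fenofibrate the values were 8.65, 10.1, 9.56 and 9.79 in Ctrl+FF and 8.28, 8.94, 14.3 and 14.7 in B2D+FF. B2D+FF 3 and B2D+FF 4 were above all Ctrl+FF mice and the other 2 were not. This gave a diet effect of 0.32 (SE 0.204, 95% interval -0.12 to 0.77, limma adjusted p = 0.416) without and 0.22 (SE 0.176, 95% interval -0.18 to 0.61, limma adjusted p = 0.519) with fenofibrate. Single libraries moved both values, the first to 0.19 without B2D 3 and 0.21 without Ctrl 2, the second to 0.096 without B2D+FF 4, 0.11 without B2D+FF 3 and 0.35 without B2D+FF 1, and Slc25a32 did not pass in any of these fits. The SD was 32.2% of the mean in B2D and 29.5% in B2D+FF, beside 20.2% in Ctrl and 6.44% in Ctrl+FF. Slc25a32 (ENSMUSG00000022299) lies on the minus strand of chromosome 15 from 39091231 to 39112716.

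Mtr, the methionine synthase gene, was expressed at a low level with no called diet difference. Mean FPKM (± SD) was 0.997 ± 0.203 for 5 Ctrl livers, 0.939 ± 0.156 for 5 B2D livers, 0.851 ± 0.114 for 4 Ctrl+FF livers and 0.843 ± 0.138 for 4 B2D+FF livers. These groups overlapped in both experiments, and Ctrl 5 was the highest library at 1.36 FPKM. The diet effect was -0.041 (95% interval -0.26 to 0.17, limma adjusted p = 0.856) without and -0.0076 (95% interval -0.20 to 0.19, limma adjusted p = 0.974) with fenofibrate. Between 107 and 242 reads per library lay behind these values. Mtr (ENSMUSG00000021311) lies on the minus strand of chromosome 13 from 12182712 to 12258113.

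Mtrr, the flavin-dependent reductase that reactivates methionine synthase, was also not called. Mean FPKM (± SD) reached 1.79 ± 0.172 for 5 Ctrl livers, 1.74 ± 0.352 for 5 B2D livers, 2.15 ± 0.356 for 4 Ctrl+FF livers and 2.50 ± 0.133 for 4 B2D+FF livers. The highest Ctrl+FF mouse, at 2.64 FPKM, was within the range of B2D+FF, and the other 3 were below it. The diet effect was -0.033 (95% interval -0.26 to 0.19, limma adjusted p = 0.894) without and 0.16 (95% interval -0.048 to 0.36, limma adjusted p = 0.361) with fenofibrate. In FPKM, Mtrr exceeded Mtr in every liver, by 1.29 to 2.49 times without fenofibrate and 2.13 to 4.09 times with it. Mtrr (ENSMUSG00000034617) lies on the minus strand of chromosome 13 from 68560780 to 68582149.

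None of the 7 tested genes had a diet effect that differed with and without fenofibrate at an adjusted p under 0.05 by limma, and 0 of the 7 did at an unadjusted p under 0.05, where 11.9% of all genes did. The interaction on the log2 scale ran from -0.20 for Slc52a2 to 0.19 for Mtrr. Its 95% intervals all held 0, and the widest, for Slc25a32, ran from -0.73 to 0.51.

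Genes with the most similar pattern over the 18 livers were found by Pearson correlation of log2(FPKM + 1), each centred on the mean of its own table. The search covered 9936 protein-coding genes, less those with a placeholder symbol (Gm with a number, or an ending in Rik), which were not ranked. The ranking is a description with no test, and the livers share diet groups. Pdxk was most like Gulo (r = 0.918), Adra1b (0.890) and Ldhd (0.885). Rfk was most like Cbx3 (0.867), Chmp2b (0.862) and Nabp1 (0.855), and Flad1 most like Asl (0.853), Lbp (0.840) and Abcf3 (0.839). For Slc52a2 the nearest was Adck5 (0.849), which starts 31749 bases beyond the end of Slc52a2 on the same chromosome. Slc25a32 was nearest to Abca6 (0.891) and Mtr to Rtl8c (0.762). Among the 8 genes without Slc52a3, Rfk and Pdxk had r = -0.57 over the 18 livers, and 0.17 after centring each group on its own mean. For Slc52a2 and Flad1 the values were 0.51 and 0.59, and for Slc52a2 and Mtr -0.52 and -0.51. Flad1 and Pdxk had -0.54 and -0.06, and Rfk and Flad1 had 0.30 and -0.49. The other pairs are not listed here.

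Enzymes that split FAD and FMN back to riboflavin, several of them on the cell surface, were taken as a list of 5 genes, all tested. In B2D 1 passed lower (Acp5), beside 1.94% of all genes, and with fenofibrate 1 passed higher (Nt5e), beside 2.24%. Nt5e encodes the ecto-5'-nucleotidase CD73. Its FPKM was 2.16, 2.56, 1.74 and 2.47 in Ctrl+FF and 7.07, 5.65, 5.01 and 6.76 in B2D+FF. Every B2D+FF mouse exceeded every Ctrl+FF mouse. Means of 2.23 ± 0.370 and 6.12 ± 0.958 FPKM (SD, n = 4 each) stood 2.74-fold apart, with a diet effect of 1.14 (SE 0.121, limma adjusted p = 0.00247), and the call held in all 8 fits that left out 1 library. Without fenofibrate Nt5e went from 0.738, 0.548, 0.566, 0.972 and 1.30 FPKM in Ctrl to 1.14, 1.61, 1.86, 2.93 and 1.28 in B2D. The difference there, 0.58 on the log2 scale, had a limma adjusted p of 0.0954, and by voom on the recovered reads it was 1.08 with an adjusted p of 0.0468. Over all the other settings tried, voom included, its adjusted p ran from 0.0301 to 0.244.

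Acp5 encodes tartrate-resistant acid phosphatase, which is also a macrophage and osteoclast enzyme. Its FPKM was 32.7, 33.9, 22.6, 34.5 and 33.3 in Ctrl and 24.0, 19.2, 17.1, 18.2 and 17.3 in B2D. Ctrl 3 lay below B2D 1, and all other Ctrl mice lay above all B2D mice. This gave a diet effect of -0.68 (SE 0.136, limma adjusted p = 0.0262), and the call was lost without a filter (0.0721) and without Ctrl 1, Ctrl 2, Ctrl 4, B2D 2 or B2D 4 (0.0513 to 0.0779). Summed Kupffer cell and macrophage markers in the same groups had medians of 81.4 FPKM in Ctrl and 71.8 in B2D with overlapping ranges. Single markers of this list differed. Clec4f did not overlap, at 25.5 to 32.7 FPKM in Ctrl and 17.0 to 23.0 in B2D, while the Marco median rose from 2.06 to 4.47. Clec4f was also separated with fenofibrate, at 20.5 to 33.7 FPKM in Ctrl+FF and 11.5 to 20.2 in B2D+FF. The part of these markers in the Acp5 difference was not tested. With fenofibrate the Acp5 log2 fold change was -0.28 (limma adjusted p = 0.0896). Enpp1 and Enpp3, which encode surface nucleotide pyrophosphatases, had log2 fold changes of 0.024 and -0.16 without and 0.040 and -0.14 with fenofibrate, and neither passed.

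Folate transport and one-carbon genes were 26, of which 23 were tested. Without fenofibrate 0 passed by limma at the adjusted threshold and 5 did at an unadjusted p under 0.05 (4 of them lower), where 18.4% of all genes did. With fenofibrate 3 of the 23 passed, all higher, beside 2.24% of all genes: Gldc, Slc19a1 and Mthfd1l. Gldc encodes the glycine decarboxylase of the glycine cleavage system and went from 39.6 ± 2.34 FPKM in Ctrl+FF to 59.5 ± 4.11 in B2D+FF (SD, n = 4 each). Its diet effect was 0.58 (limma adjusted p = 0.00989, past the threshold in all 8 fits that left out 1 library, and 0.0726 with all 4 groups in 1 fit). Slc19a1, the reduced folate carrier gene, went from 2.80 ± 0.340 to 4.46 ± 0.497 FPKM (diet effect 0.52, limma adjusted p = 0.0181). Mthfd1l, a mitochondrial formate-producing enzyme gene, went from 0.816 ± 0.258 to 1.83 ± 0.345 FPKM (diet effect 0.64, limma adjusted p = 0.0245). Leaving out Ctrl+FF 1, Ctrl+FF 2 or Ctrl+FF 3 ended the calls of Slc19a1 (0.0525 to 0.0687) and Mthfd1l (0.0646 to 0.0809), as did B2D+FF 1 or B2D+FF 4 for Mthfd1l (0.0521 and 0.0693). With all 4 groups in 1 fit Slc19a1 had an adjusted p of 0.0798, and without a filter Mthfd1l had 0.0745. The list median was -0.019 without and -0.021 with fenofibrate.

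Methionine cycle and cobalamin genes other than Mtr and Mtrr were 18, all tested. Without fenofibrate 0 passed by limma at the adjusted threshold, 3 had an unadjusted p under 0.05, beside 18.4% of all genes, and the list median was -0.046. With fenofibrate 0 passed and 5 had an unadjusted p under 0.05, beside 21.2% of all genes, with a list median of 0.093.

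Genes of other vitamin cofactors were 26, of which 25 were tested. In B2D 20 of the 25 had a lower mean log2 level, beside 50.2% of all genes tested, and 3 passed, all lower, beside 1.94% of all genes, with a list median of -0.20 beside -0.0013 over all genes. Nmrk1, the nicotinamide riboside kinase gene, had the smallest p of the 3. Its FPKM was 12.1, 18.1, 12.5, 12.2 and 7.83 in Ctrl and 4.69, 5.71, 3.95, 4.10 and 6.71 in B2D. No B2D mouse reached a Ctrl mouse, and the diet effect was -1.15 (SE 0.189, limma adjusted p = 0.0108). It passed in all 10 fits that left out 1 library and had an adjusted p of 0.0527 without a filter. Nampt, which encodes the enzyme that recycles nicotinamide, had a diet effect of -0.71 (limma adjusted p = 0.0364), and Coasy, the coenzyme A synthase gene, of -0.42 (0.0349). The Nampt call was lost in 7 of the 10 fits that left out 1 library (all but those without Ctrl 1, B2D 3 or B2D 5, up to 0.105), and that of Coasy also in 7 (all but those without Ctrl 3, Ctrl 5 or B2D 1, up to 0.0990). Nampt also missed the threshold without a filter (0.104) and after quantile scaling (0.0529), and Coasy after upper-quartile (0.0902) and quantile scaling (0.0917).

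With fenofibrate 2 of the 25 passed, both higher, beside 2.24% of all genes. Nmrk1 was again lower there without overlap, with a diet effect of -0.53 (limma adjusted p = 0.0663, by voom on the recovered reads 0.0357, and 0.0357 to 0.150 over the other settings tried). Slc5a6 encodes the sodium-dependent multivitamin transporter, which carries biotin and pantothenate. Its FPKM was 2.57, 1.90, 2.28 and 2.91 in Ctrl+FF and 3.97, 4.21, 3.67 and 3.62 in B2D+FF. All B2D+FF mice were above all Ctrl+FF mice, with a diet effect of 0.52 (SE 0.10, limma adjusted p = 0.0236). Without Ctrl+FF 1, Ctrl+FF 2, Ctrl+FF 3 or B2D+FF 1 the adjusted p was 0.0605 to 0.0672, and without a filter 0.0611. Nadsyn1, which encodes NAD synthetase, had a diet effect of 0.36 (limma adjusted p = 0.0277), and this call remained in 1 of 8 fits that left out 1 library, the one without B2D+FF 2. Its adjusted p was 0.0594 after upper-quartile rescaling and 0.0724 with all 4 groups in 1 fit. The list median was 0.036.

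**Figure D3:**
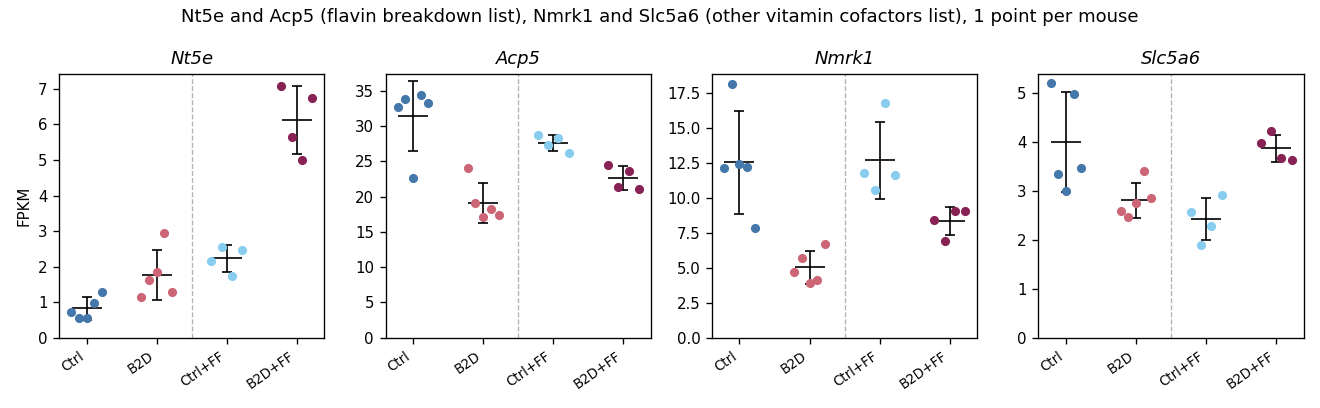
FPKM (vertical axes, linear from 0) of the flavin breakdown genes Nt5e and Acp5 and of the cofactor genes Nmrk1 and Slc5a6 in every mouse of the 4 groups (points, with mean and SD as bar and whiskers). Nmrk1 was separated between diets without fenofibrate, at 7.83 or more in Ctrl and 6.71 or less in B2D, and Nt5e, Acp5, Nmrk1 and Slc5a6 were each separated with fenofibrate (Nt5e and Slc5a6 past the threshold).

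**Figure D4:**
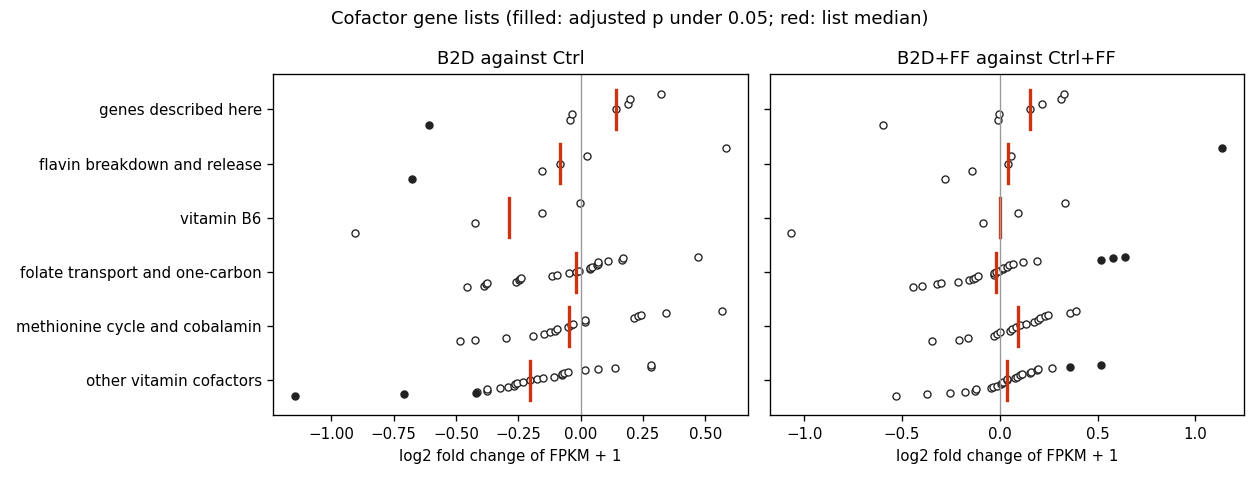
Log2 fold change of FPKM + 1 on the deficient diet (horizontal axis) for each tested gene of the 8 described here and of 5 cofactor lists (rows), without fenofibrate on the left and with it on the right (filled points had an adjusted p under 0.05, red lines are list medians). The vitamin B6 list, with only 4 tested genes, has the lowest median without fenofibrate, -0.29, and the filled points are lower on the left and higher on the right.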

How the data were processed

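Liver RNA of 18 mice (5 Ctrl, 5 B2D, 4 Ctrl+FF and 4 B2D+FF, by the labels) had been sequenced as paired-end mRNA libraries. Per the labels and the study's methods, the authors aligned reads to mm10 with STAR, used featureCounts for counting, and deposited FPKM in 1 table per experiment. Versions and strand settings are not given in the sources used here. Deposited FPKM values came out as whole reads for 100% of values (tolerance 0.01 reads), after scaling by median-of-ratios size factors within each table. The authors' tables held no column of another sample.

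The 8 genes and the cofactor lists were chosen with earlier results of these data known. Of each list the genes past the threshold were named (at most 6, by smallest p) and up to 4 more for their role. The most similar genes were up to 3 with the highest Pearson r, placeholder symbols left out. The counts of the vitamin B6 list leave out 1 gene that is not reported here. Each table was fitted alone with limma 3.58.1 (R 4.3.3) with a mean-variance trend on log2(FPKM + 1), for genes with a mean of at least 0.5 FPKM, with Benjamini-Hochberg adjustment. The diet effect with minus without fenofibrate was a contrast in a fit of all 18 libraries. Single genes also had exact two-sided permutation tests of mean log2(FPKM + 1). Alternatives were a pseudocount of 0.1, no filter, a minimum of 5 FPKM, upper-quartile and quantile scaling, voom on the recovered reads, array weights, unadjusted p, all 4 groups in 1 fit, and each library left out. The script was tested on simulated data. Gene overlaps and coordinates came from GENCODE vM21 (GRCm38), and promoter windows from RefSeq on GRCm38.p6, which held 5 of the 8 genes. Nothing in the labels says how mice were caged, so an effect of cage cannot be told apart from diet. The p-values treat the mice of a group as independent.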

Additional observations from a re-analysis of the deposited data

Results flagged for a closer look

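Among 32 combinations of a gene and a group, 1 library stood apart from its group by the size of its gap, where chance flags about 1 in 20 groups. Ctrl 5 had 1.36 FPKM of Mtr, and its gap to the next Ctrl mouse was 0.896 of the group's range, above the critical value of 0.71 for 5 samples. Without that library the Mtr log2 fold change in B2D against Ctrl was 0.020.

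Slc5a6, the multivitamin transporter gene of the list of other vitamin cofactors, had a diet effect that differed between the experiments by a test of the difference itself. It was lower in B2D than in Ctrl (log2 fold change -0.37, limma adjusted p = 0.170) while B2D+FF exceeded Ctrl+FF (0.52, limma adjusted p = 0.0236). The difference between these effects was 0.89 (SE 0.179, limma adjusted p = 0.0426). The adjusted p was 0.0541 with a pseudocount of 0.1, 0.0973 without a filter, 0.0931 after upper-quartile rescaling and 0.0697 by voom. It passed in 5 of 18 fits that left out 1 library, with adjusted p up to 0.106 without Ctrl+FF 2, while the difference stayed between 0.81 and 0.97. Drug, diet time and expression table change together in this contrast and cannot be told apart.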

How the results depend on the processing

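No paired analysis was possible because mice of the groups share no replicate numbers in the labels. Over 711 alternative results of the named genes, 595 kept direction and side of the threshold, 74 lost the call, 18 gained it and 24 changed sign. Most of the 711 were of results not called in the main fit, which could not lose a call. The 595 thus do not measure how steady the calls were. The setting of unadjusted p changed only the p-value used. The cause of each change below was not tested. In B2D against Ctrl, 313 genes passed, and 67 did without a filter, 208 after upper-quartile rescaling, 2124 at unadjusted p, 731 with all 4 groups in 1 fit and 98 to 332 with a library left out, the lowest without Ctrl 4. By voom on recovered reads 403 passed. Of the 8 genes described, 1 passed there, and 0 without a filter and 0 to 1 with a library left out. With fenofibrate 529 passed, and 272 did without a filter, 885 with array weights, 2519 at unadjusted p, 742 by voom and 175 to 596 with a library left out, the lowest without Ctrl+FF 1. Of the 8 genes 0 passed with fenofibrate, but 1 (Pdxk) did at a minimum of 5 FPKM, with upper-quartile or quantile scaling, voom, array weights, or all 4 groups in 1 fit, 3 at unadjusted p, and 0 to 1 (Flad1) with a library left out. For the diet effect with minus without fenofibrate 27 genes passed, against 16 with a pseudocount of 0.1, 13 by voom, 136 with array weights, 1411 at unadjusted p and 17 to 66 with a library left out.

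Sign changes concerned values near 0. The log2 fold change of Mtr with fenofibrate was 0.037 after quantile scaling and -0.040 to 0.045 with a library left out, and that of Slc52a2 was 0.048 with array weights and -0.083 to 0.14. Without fenofibrate Mtr ran from -0.076 to 0.020 and Mtrr from -0.077 to 0.039 with a library left out. The interaction of Pdxk was -0.014 after upper-quartile and -0.013 after quantile scaling and -0.078 to 0.18 with a library left out. For Slc25a32 it was 0.010 with array weights and -0.26 to 0.026, and for Mtr -0.028 to 0.086. Depth limited Slc52a3, at 15 reads or fewer per library.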

Other observations

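Of 211 genes that were lower in B2D than in Ctrl at a limma adjusted p under 0.05 and were also tested with fenofibrate, 185 (87.7%) were lower in B2D+FF than in Ctrl+FF, 91 (43.1%) were lower there without overlap, and 60 (28.4%) were lower past the threshold. Over all 11878 genes tested with fenofibrate these shares were 47.2%, 6.44% and 2.21%. The experiments share no mice. Pdxk is among the 91 and not among the 60.

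Of the 23 tested genes of the folate list, 3 were lower in B2D without overlap, beside 2.89% of all genes. Sardh, the FAD-dependent sarcosine dehydrogenase gene, went from 144 ± 10.9 to 105 ± 14.6 FPKM (SD, n = 5 each, log2 fold change -0.46, limma adjusted p = 0.0615). Shmt2, the mitochondrial serine hydroxymethyltransferase gene, went from 61.5 ± 4.35 to 47.2 ± 5.44 FPKM (-0.38, limma adjusted p = 0.0781), and Gcsh, the H protein gene of the glycine cleavage system, from 60.2 ± 8.39 to 45.5 ± 3.01 FPKM (-0.39, limma adjusted p = 0.0898). None of the 3 passed the threshold, and they were named after their values were seen. Other genes of the same reactions did not move alike, with log2 fold changes of 0.47 for Gldc and 0.039 for Amt, both of the glycine cleavage system, and -0.11 for Dmgdh, the dimethylglycine dehydrogenase gene. With fenofibrate Sardh again did not overlap between diets, at 148 ± 14.7 and 110 ± 20.9 FPKM (SD, n = 4 each, limma adjusted p = 0.114). Shmt2 and Gcsh had log2 fold changes of 0.036 and -0.14 there and overlapped.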
